A study of Mus musculus with 6 samples.

Results

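The 10 genes described here encode ligands and receptors of the platelet-derived growth factor (PDGF), vascular endothelial growth factor (VEGF) and Kit systems. They are the receptors Pdgfra, Pdgfrb, Kdr, Flt1 and Kit and the ligands Pdgfa, Pdgfb, Pdgfc, Vegfa and Kitl. They were chosen by name, with earlier results of these data known. All 10 were found among the 24421 gene entries of the count table, and all 10 passed the filter on low counts. The RNA came from mouse iPSCs (induced pluripotent stem cells), reprogrammed cells that resemble embryonic stem cells. The SRF KO group (SRFΔ/Δ) has lost serum response factor, and the WT group (SRFf/f) carries the intact conditional alleles of the same gene. How the gene was deleted is not given in the sources used here. Each group has 3 libraries, and both were grown with serum. The labels name 3 replicates per group without saying whether these were separate clones or separate cultures, so p-values measure the spread between these libraries, which may be technical.

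All 5 receptors are receptor tyrosine kinases, which pair up on binding a ligand and phosphorylate each other. PDGF-A, PDGF-B and PDGF-C chains bind PDGFRα, and PDGF-B also binds PDGFRβ. VEGF-A binds KDR, the main signalling receptor of blood-vessel cells, and FLT1, which binds it tightly and often acts as a sink, while Kit ligand (stem cell factor) binds KIT. In the early mouse embryo Pdgfra marks the primitive endoderm, Pdgfa is made by the epiblast, and Kit is found in pluripotent and germ cells. PDGF is also a classical mitogen of serum and activates SRF through Ras-ERK signalling and through actin dynamics.

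Total counts lay between 26321602 and 36680156 per library. Srf itself, the targeted gene, had 84 to 131 counts per SRF KO library against 765 to 1326 per WT library, a log2 fold change of -3.12 ± 0.13 (SE). The pluripotency factor Pou5f1 stood at 773 ± 11.3 CPM (counts scaled to a common library size) in SRF KO against 818 ± 52.4 CPM in WT (SD, n = 3), and this defining marker of the labelled cell type was thus present in both groups. At an adjusted p threshold of 0.05, 42.4% of the 14778 genes tested passed, 21.2% as higher in SRF KO and 21.3% as lower. These shares are the background for every count below. The p-values throughout come from the quasi-likelihood test of edgeR, adjusted over all entries tested after Benjamini and Hochberg, and CPM values use TMM scaling (the trimmed mean of M values). In these bulk samples, a change in the number of cells that express a gene and a change in RNA per cell cannot be told apart.

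Of the 10 ligand and receptor genes, 5 rose, 2 fell and 3 did not pass the threshold. The 4 receptors Pdgfra, Pdgfrb, Kdr and Flt1 rose, as did the ligand Kitl, and the receptor Kit and the ligand Pdgfb fell. Pdgfa, Pdgfc and Vegfa did not pass. The median absolute log2 fold change was 0.86 over the 10 genes and 0.21 over all genes tested. For 9 of the 10 the SRF KO and WT values did not overlap, against 52.7% of all genes tested, and Pdgfa was the exception. Because the 10 genes were chosen with earlier results of these data known, these contrasts with all genes describe them and test nothing.

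**Figure D1:**
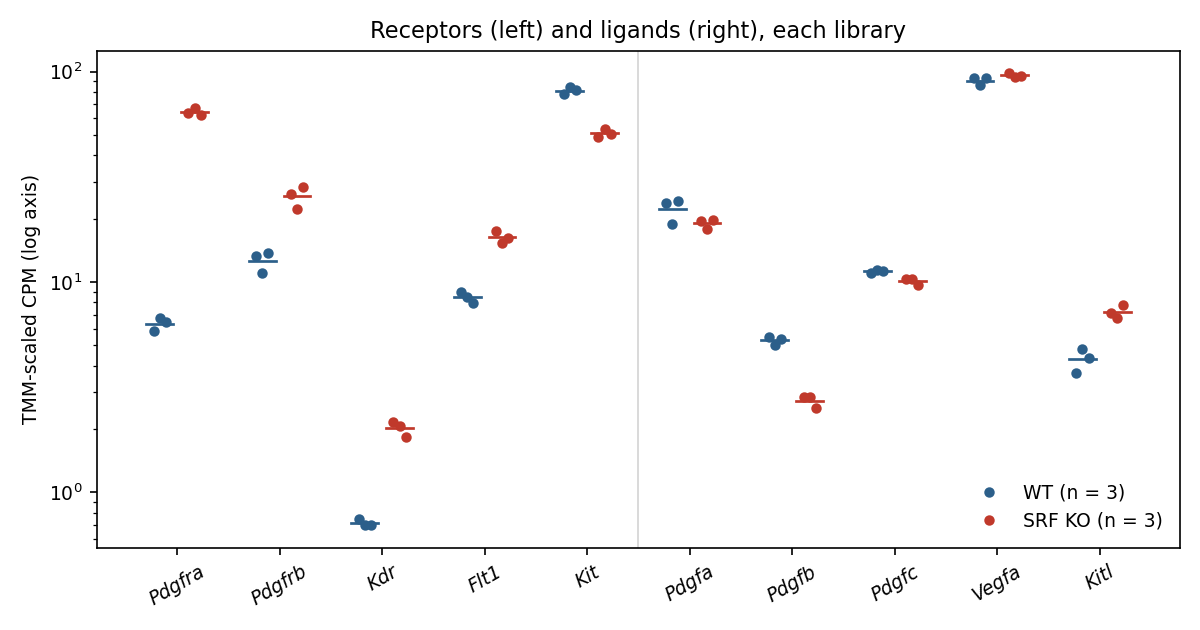
TMM-scaled CPM on a log axis in each library for the 5 receptors (left of the grey line) and the 5 ligands (right); points are libraries, short lines the means of the 3 WT (blue) and 3 SRF KO (red) libraries. Pdgfra lies near 6 CPM in WT and near 64 in SRF KO, whereas Kit is the 1 receptor whose SRF KO points lie under the WT points.

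Pdgfra, the receptor for PDGF-A and PDGF-C, showed the largest change. It stood at 63.6, 67.1 and 62.3 CPM in SRF KO replicates 1 to 3 and at 5.85, 6.72 and 6.45 CPM in WT replicates 1 to 3. The lowest SRF KO library was far above the highest WT library, and the spread within each group was small. The mean was 64.3 ± 2.47 CPM in SRF KO against 6.34 ± 0.445 CPM in WT (SD, n = 3), a 10.2-fold difference and a log2 fold change of 3.35 ± 0.07 (SE, adjusted p = 3.45e-11). By log2 fold change it ranked 56 among the 14778 genes tested. In the alternative analyses its log2 fold change stayed between 3.29 and 3.40.

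Pdgfrb, the receptor that binds PDGF-B and is typical of pericytes and fibroblasts, rose less. Its levels were 26.1, 22.2 and 28.4 CPM in SRF KO against 13.2, 11.0 and 13.7 CPM in WT. The groups did not overlap, and replicate 2 was the lowest library in each group. The mean was 25.6 ± 3.12 CPM in SRF KO against 12.6 ± 1.44 CPM in WT (SD, n = 3), and the log2 fold change was 1.01 ± 0.11 (SE, adjusted p = 1.72e-05). Divided by the length of annotated exons, Pdgfra made up 58.0% ± 3.94 of the summed PDGF receptor level in SRF KO against 21.7% ± 2.97 in WT (SD, n = 3). In WT, Pdgfrb was thus the more abundant PDGF receptor RNA per length in every library, and in SRF KO it was Pdgfra, with shares of 57.1%, 62.3% and 54.5%.

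The PDGF ligands did not follow their receptors. Pdgfb, which encodes the chain that binds both receptors, fell. It stood at 2.82, 2.83 and 2.52 CPM in SRF KO against 5.50, 5.01 and 5.33 CPM in WT, with 73 to 76 and 129 to 199 counts per library. Each WT library was above every SRF KO library. The log2 fold change was -0.96 ± 0.12 (SE, adjusted p = 6.17e-05), which leaves the SRF KO libraries at 51.6% of WT.

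Pdgfa, the ligand made by the epiblast, measured 19.5, 17.9 and 19.8 CPM in SRF KO against 23.6, 18.9 and 24.4 CPM in WT. WT replicate 2 lay within the SRF KO range, and the other WT libraries lay above it. The log2 fold change was -0.23 (SE 0.10) and did not pass the threshold (adjusted p = 0.0755). Without WT replicate 2 it was -0.32 and passed (adjusted p = 0.000828). Per length of annotated exons, the Pdgfra RNA level was 1.05 ± 0.0992 times that of Pdgfa in SRF KO against 0.0900 ± 0.0180 times in WT (SD, n = 3).

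Pdgfc, a ligand that is secreted in latent form and activated by proteolysis, changed little. Its values were 10.3, 10.3 and 9.71 CPM in SRF KO against 11.0, 11.5 and 11.2 CPM in WT. The groups did not overlap but were close, and the log2 fold change of -0.15 ± 0.08 (SE) did not pass (adjusted p = 0.155).

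Since SRF binds the CArG box, a run of 6 A or T bases between CC and GG, promoter windows from RefSeq (build GRCm38.p6, 250 bases before to 50 after the start site) were searched on both strands. Windows were found for 8 of the 10 genes, all but Pdgfb and Pdgfrb, and numbered 11 in all, and 1 of the 11 held a CArG box, against 1.63% of all 32851 promoter windows. That window belongs to Pdgfc, where the match begins 17 bases before the start site. It is shown with the same stretch of Pdgfra, the gene with the largest change, which holds no match. Both are printed 5′ to 3′ on the plus strand, at chr3:81036166-81036415 and chr5:75152001-75152250, up to the base before the start site, with the CArG box in capitals.
Pdgfc: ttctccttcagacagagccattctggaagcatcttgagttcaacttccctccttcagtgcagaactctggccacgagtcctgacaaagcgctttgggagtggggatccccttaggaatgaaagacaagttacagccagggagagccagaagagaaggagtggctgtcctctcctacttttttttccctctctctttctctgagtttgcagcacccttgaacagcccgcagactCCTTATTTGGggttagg
Pdgfra: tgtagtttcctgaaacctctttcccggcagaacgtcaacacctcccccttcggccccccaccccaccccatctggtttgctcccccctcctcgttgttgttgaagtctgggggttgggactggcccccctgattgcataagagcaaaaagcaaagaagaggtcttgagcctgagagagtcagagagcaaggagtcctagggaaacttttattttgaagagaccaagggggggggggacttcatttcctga
The Pdgfc letters CCTTATTTGG are a match in sequence only, and Pdgfc is among the 3 genes that did not pass the threshold. The motif of the oxygen-regulated HIF factors, ACGTG, was found in 1 of the 11 windows (Vegfa) against 19.6% of all windows. AGATAA, a form of the GATA factor motif, was found in 1 (a different Vegfa window) against 11.2%.

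Kdr, the main VEGF-A signalling receptor and a marker of blood-vessel progenitors, rose from a very low level. SRF KO libraries had 58, 55 and 53 counts of it and WT libraries 27, 18 and 20, which is 2.16, 2.08 and 1.83 CPM against 0.746, 0.700 and 0.697 CPM. Every SRF KO value was more than any WT value. The log2 fold change was 1.49 ± 0.18 (SE, adjusted p = 5.82e-05), a 2.81-fold difference. Even in SRF KO it was the least abundant of the 10 genes per length, at 0.224 ± 0.0187 CPM per kilobase of annotated exon (SD, n = 3).

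Flt1, the high-affinity VEGF-A receptor that also yields a soluble form, rose too. Its levels were 17.5, 15.4 and 16.2 CPM in SRF KO against 8.95, 8.51 and 7.95 CPM in WT. The groups were well apart, with a log2 fold change of 0.95 ± 0.09 (SE, adjusted p = 5.08e-06). Counts per gene do not separate the membrane-bound from the soluble form. Per length, Flt1 RNA was 5.44 ± 0.485 times as abundant as Kdr RNA in SRF KO against 7.93 ± 0.270 times in WT (SD, n = 3).

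Vegfa, the ligand of both, was the most abundant of the 10 genes per length in either group, at 22.4 ± 0.462 CPM per kilobase in SRF KO against 21.2 ± 0.896 in WT (SD, n = 3). Its levels were 98.3, 94.4 and 95.8 CPM in SRF KO against 92.9, 86.4 and 93.1 CPM in WT. The SRF KO values were just above the WT values. The log2 fold change was 0.08 ± 0.05 (SE, adjusted p = 0.220), which did not pass, and it lay between 0.052 and 0.10 in all alternatives run.

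Kit, the receptor for stem cell factor, was the 1 receptor of the 5 that fell. It stood at 49.2, 53.3 and 50.3 CPM in SRF KO against 78.2, 84.5 and 81.5 CPM in WT. No SRF KO library came near the WT range. The mean was 50.9 ± 2.10 CPM against 81.4 ± 3.13 CPM (SD, n = 3), giving a log2 fold change of -0.68 ± 0.05 (SE, adjusted p = 2.19e-06). Its ligand Kitl moved the other way, from 3.67, 4.82 and 4.36 CPM in WT to 7.10, 6.76 and 7.78 CPM in SRF KO. Its groups did not overlap, and the log2 fold change was 0.77 ± 0.12 (SE, adjusted p = 0.000389). Per length, Kit RNA was 12.7 ± 1.28 times as abundant as Kitl RNA in WT and 4.70 ± 0.477 times in SRF KO (SD, n = 3). Kit RNA remained the more abundant of the pair in all 6 libraries.

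The order of levels per kilobase of annotated exon differed between the groups. In WT it ran Vegfa, Kit, Pdgfa, Pdgfrb, Pdgfc, Pdgfb, Kitl, Pdgfra, Flt1 and Kdr. The ranges of Pdgfrb and Pdgfc overlapped, as did those of Kitl and Pdgfra and those of Pdgfra and Flt1. In SRF KO it ran Vegfa, Pdgfra, Pdgfa, Kit, Pdgfrb, Pdgfc, Kitl, Flt1, Pdgfb and Kdr, with overlapping ranges for Pdgfra and Pdgfa, for Pdgfa and Kit, and for Kitl and Flt1. Pdgfra went from rank 8 (0.633 ± 0.0444 CPM per kilobase) to rank 2 (6.42 ± 0.247, SD, n = 3). Such levels depend on the annotated exon length, which can differ from the transcripts used in these cells.

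Pdgfra, Kit and Kdr lie next to each other on mouse chromosome 5, with no other protein-coding gene of GENCODE M21 (GRCm38) between them. Pdgfra spans chr5:75152292-75198215 and Kit chr5:75574916-75656722, both on the plus strand, and Kdr spans chr5:75932827-75978458 on the minus strand. Gaps of 376.7 and 276.1 kilobases separate them. Along this stretch the changes alternated in sign, up for Pdgfra, down for Kit and up for Kdr.

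Of the nearest 5 protein-coding genes on each side, 8 of 10 were tested, 1 was higher, 1 was lower and 6 did not pass, with a median log2 fold change of 0.063. Lnx1, which encodes a ubiquitin ligase, fell by 1.95 on the log2 scale (SE 0.15, adjusted p = 1.72e-06), from 5.24 ± 0.329 to 1.35 ± 0.248 CPM (SD, n = 3). Srd5a3, a reductase needed for protein glycosylation, had a log2 fold change of 0.32, a call lost in DESeq2 (0.33) and when SRF KO replicate 2 (0.28) or 3 (0.32) was left out. The gene nearest to Pdgfra that was tested, Chic2, stood at 17.7 ± 0.618 CPM in SRF KO against 17.4 ± 1.48 CPM in WT (SD, n = 3, adjusted p = 0.817). Clock, the circadian transcription factor, measured 44.8 ± 2.86 CPM in SRF KO, next to 41.8 ± 3.002 CPM in WT (SD, n = 3), and did not pass. Without WT replicate 2, Clock (log2 fold change 0.16) and its neighbour Tmem165 (0.13) passed, and without WT replicate 3 Pdcl2 (-0.65) did. Tmem165 also passed over all 6 libraries with DESeq2's size factors in edgeR (0.13, adjusted p = 0.0458). The homeobox gene Gsx2 and the neuropeptide gene Nmu had too few counts to be tested.

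**Figure D2:**
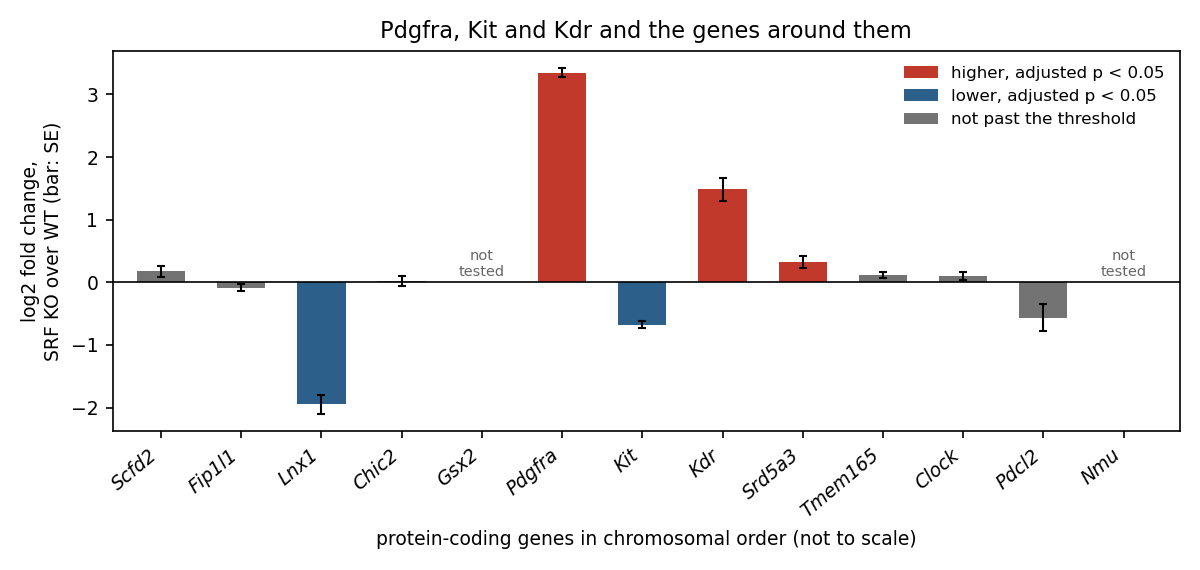
Log2 fold change (SRF KO over WT, bars SE) of Pdgfra, Kit, Kdr and the nearest 5 protein-coding genes on either side, in chromosomal order and not to scale; red is higher, blue lower, grey not past the threshold. Pdgfra at 3.35 and Kdr at 1.49 stand on either side of Kit at -0.68, and the flanking genes that were tested, other than Lnx1, lie between -0.56 and 0.32.

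The other genes lie elsewhere. In the same annotation Flt1 spans chr5:147561604-147726011 and Pdgfa chr5:138976014-138997370, far from the cluster. Pdgfc is at chr3:81036416-81214040, Kitl at chr10:100015630-100100416, Pdgfb at chr15:79995874-80014977 and Vegfa at chr17:46016993-46032369. Exons of Pdgfra, Pdgfa and Pdgfc overlap annotated antisense or unclassified transcripts on the opposite strand. Pdgfra exons also overlap Mir7025, a small RNA gene on the same strand. Its own entry had 11 to 19 counts per SRF KO library and 0 to 3 per WT library. Summed over the overlapping genes, the overlaps are 652 bases for Pdgfra, Mir7025 included, 813 for Pdgfa and 147 for Pdgfc. Whether the counting used strand is not given in the sources used here. Reads of the opposite-strand transcripts therefore cannot be told apart from reads of the genes, and strand would not separate Mir7025 from Pdgfra.

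Other genes of the same families were examined as a list of 15 symbols, 14 of them in the table and 13 tested. Of these, 6 rose, 0 fell and 7 did not pass, while DESeq2 called 5 higher and 0 lower. At an unadjusted edgeR p under 0.05 the counts were 9 higher and 0 lower. The median log2 fold change of the 13 was 0.29, against -0.013 for all genes tested. Nrp1, a co-receptor that presents VEGF-A to KDR, rose from a WT mean of 11.4 ± 0.282 CPM to 33.1 ± 2.38 CPM (SD, n = 3), that is by a log2 fold change of 1.53 ± 0.08 (SE, adjusted p = 3.81e-08). Nrp2, the co-receptor linked to lymphatic growth, rose from 44.9 ± 1.58 to 76.96 ± 1.91 CPM (SD, n = 3, log2 fold change 0.78, adjusted p = 5.11e-07). For each of these co-receptors the lowest SRF KO library was above the highest WT library.

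The sister receptor of KIT and its ligand rose as a pair. Csf1, the macrophage growth factor, stood at 104.2, 90.95 and 117.5 CPM in SRF KO against 35.4, 37.8 and 38.5 CPM in WT, a log2 fold change of 1.49 ± 0.08 (SE, adjusted p = 1.19e-07). Csf1r, its receptor and a relative of KIT and the PDGF receptors, went from 3.18 ± 0.562 to 6.12 ± 1.23 CPM (SD, n = 3, log2 fold change 0.94, adjusted p = 0.000923). Flt3, another relative, had 1 to 5 counts in any library and was not tested. Its ligand Flt3l was near 0.67 CPM in SRF KO and 0.64 in WT.

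Pdgfd, a ligand of PDGFRβ, rose from 0.730 ± 0.204 to 1.32 ± 0.141 CPM (SD, n = 3, log2 fold change 0.89, adjusted p = 0.0101), a call that was lost without WT replicate 1 (0.67). Pdgfrl, which encodes a PDGF receptor-like protein, had a log2 fold change of 0.43 (adjusted p = 0.0353), a call lost in DESeq2 (0.43) and on leaving out WT replicate 1 (0.31) or 1 of the SRF KO replicates (0.37 to 0.48). The remaining VEGF genes did not pass. Log2 fold changes were 0.24 for Vegfc, 0.29 for Figf (VEGF-D) and 0.26 for Flt4, their receptor of lymphatic vessels. They were -0.23 for Vegfb and -0.22 for Pgf, both ligands of FLT1. Without WT replicate 2, Vegfb passed as lower (-0.37). Il34, the second ligand of CSF1R, was at 0.18.

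**Figure D3:**
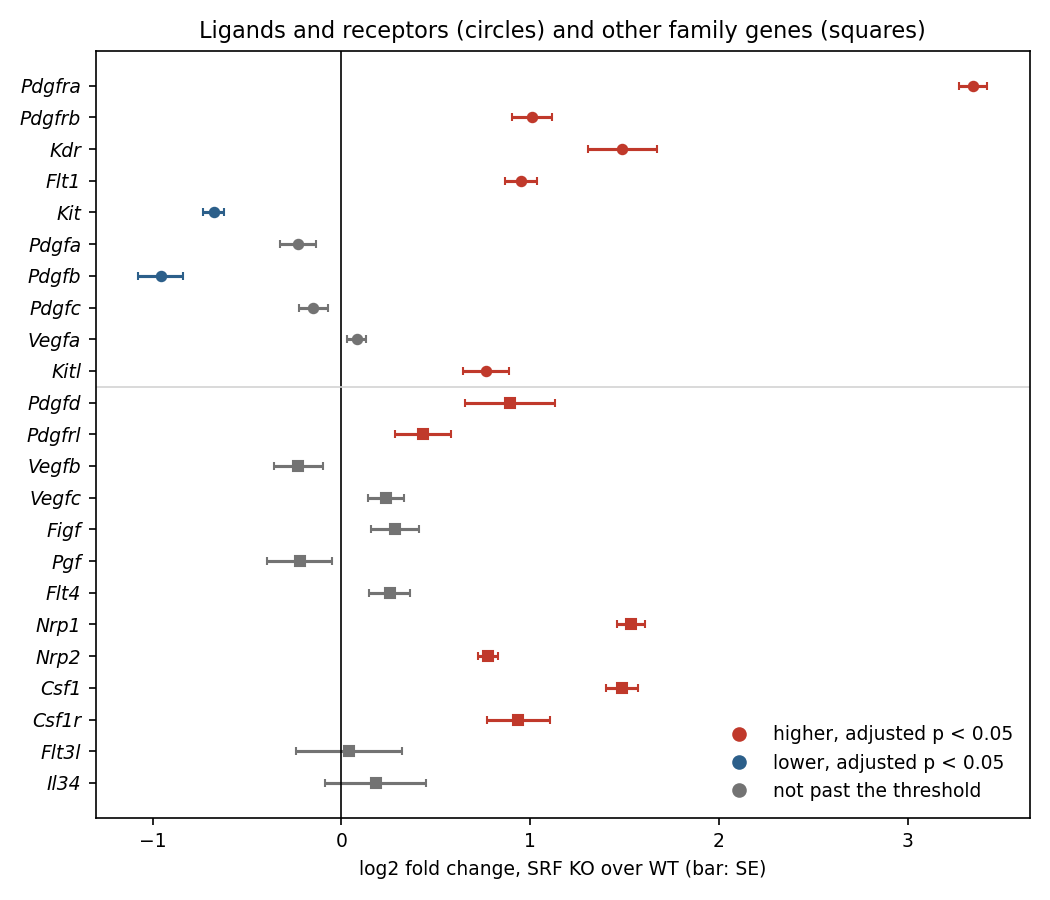
Log2 fold change (SRF KO over WT, bars SE) of the 10 ligand and receptor genes (circles) and the 13 tested genes of related families (squares); red passed the threshold as higher, blue as lower, grey did not pass. Pdgfra at 3.35 stands apart, Kit and Pdgfb are the blue points, and no related gene is blue.

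To set the receptors beside the cell types they mark, lists of marker genes were measured in the same libraries. Of 18 tested extraembryonic endoderm markers, 17 rose and 1 fell, and their summed level was 3968 to 4243 CPM in the SRF KO libraries and 1158 to 1243 CPM in the WT libraries. Gata6 and Gata4, transcription factors of the primitive endoderm, rose by 3.66 and 3.95 on the log2 scale, beside 3.35 for Pdgfra. Apart from Ttr, the markers that rose ranged from 1.25 (Plat) to 5.88 (Cubn). Ttr was at 0 counts in all WT libraries, and Afp was at or under 3 counts in all 6 libraries. Apoe was the marker that fell (-0.28). The part of these cells in the Pdgfra result was not tested.

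The genes whose profile over the 6 libraries was nearest to that of Pdgfra were sought among 12343 other genes that averaged 50 counts or more. The measure was the root mean square distance of log2(CPM + 0.5), each gene centred on its mean. The nearest were Nostrin at 0.084, Dgkk at 0.10 and Col4a1 at 0.10. Col4a1, a basement membrane collagen on the endoderm list, rose from a WT mean of 72.0 ± 3.27 CPM to 740.3 ± 36.2 CPM (SD, n = 3), that is by a log2 fold change of 3.36. Nostrin, a regulator of nitric oxide synthase trafficking, had a log2 fold change of 4.43, and Dgkk, a diacylglycerol kinase, one of 3.59.

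Pdgfrb was nearest to other genes. Hic1, a transcription factor of mesenchymal cells, Bmp1, a procollagen protease, and Col1a1, the main fibrillar collagen, lay at distances of 0.028, 0.036 and 0.038. Col1a1 stood at 274, 238 and 293 CPM in SRF KO against 134, 114 and 149 CPM in WT, a log2 fold change of 1.02. Of 17 fibroblast and pericyte markers, 16 rose and 1 did not pass, with a median log2 fold change of 1.09. Their summed level was 1060 to 1244 CPM in SRF KO and 531 to 587 CPM in WT. That sum was lowest in replicate 2 and highest in replicate 3 in both groups, the same order as Pdgfrb. The order was not particular to these genes, as Pdgfa and Vegfb, which did not pass, had it too. Rgs5, a pericyte marker, was low (0.655 ± 0.0452 CPM in SRF KO against 0.215 ± 0.0877 in WT, SD, n = 3), and none of the 17, which include Pdgfrl, was at 0 in all libraries. The part of fibroblast-like cells in the Pdgfrb result was not tested.

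For Kdr the nearest genes were Tnik, a kinase of the Wnt pathway, at 0.047, Cpeb2, a translation regulator, at 0.052 and Soga3 at 0.059. None of these was on a marker list. Their log2 fold changes were 1.22, 1.11 and 1.08, beside 1.49 for Kdr. The added 0.5 narrows the differences of genes with low CPM, such as Kdr and, near Pdgfra, Nostrin (0.354 CPM in WT). With 3 libraries in each of 2 groups, a distance of this kind mostly reflects the size of the group difference in log2(CPM + 0.5). It is a description of likeness and nothing more.

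**Figure D4:**
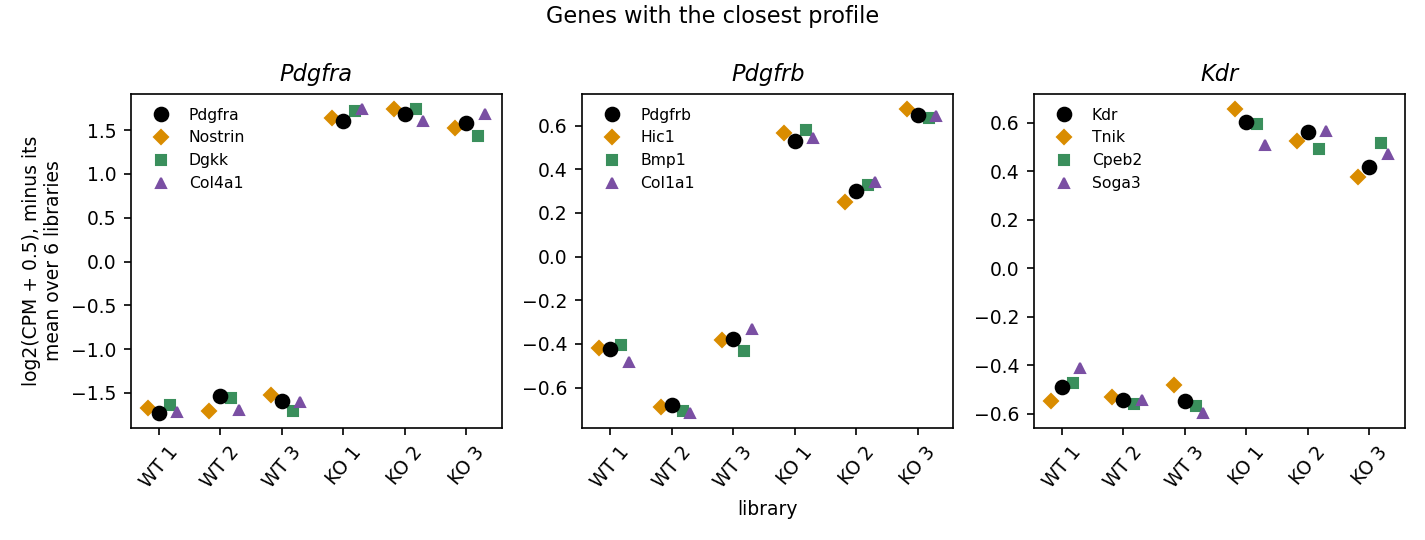
Log2(CPM + 0.5) of Pdgfra, Pdgfrb and Kdr (black circles) and of the 3 genes nearest to each, minus each gene's mean over the 6 libraries; points are shifted sideways for legibility. Each gene lies close to the black circles because it was chosen for its small distance from them, 0.028 to 0.038 in the Pdgfrb panel.

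Markers of blood vessels were mixed. Of 11 tested endothelial markers, 6 rose, 2 fell and 3 did not pass, and their summed level was 103 to 107 CPM in SRF KO and 99.4 to 105 CPM in WT. Cdh5, the cadherin of endothelial junctions, rose from a WT mean of 0.195 ± 0.0693 CPM to 4.55 ± 0.318 CPM (SD, n = 3), that is by a log2 fold change of 4.56 (adjusted p = 3.44e-08). Pecam1, which pluripotent cells also express, fell from 55.6 ± 2.76 to 29.4 ± 1.10 CPM (SD, n = 3), and Tek, the angiopoietin receptor, fell by 0.50 on the log2 scale. Robo4 rose by 1.32, from a WT mean of 13.5 ± 2.60 CPM to 33.9 ± 1.43 CPM (SD, n = 3). The similar sums thus hold opposite changes of abundant genes. Erg (1.16), Esam (1.12) and Sox18 (0.93) also rose, as did Egfl7 (0.28), a call lost without SRF KO replicate 1 (0.23) or 3 (0.28). Emcn was too low to be tested.

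Of 11 tested markers of mesoderm and blood-vessel progenitors, 4 rose, 1 fell and 6 did not pass, with a summed level of 59.5 to 63.2 CPM in SRF KO libraries and 35.7 to 37.9 CPM in WT libraries. Most of the difference in the sum was Runx1, a transcription factor of blood formation. It rose from 5.27 ± 0.581 to 27.2 ± 1.99 CPM (SD, n = 3, log2 fold change 2.36, adjusted p = 7.53e-09). Foxf1, Etv2 and Tal1 rose from lower levels, and T, the primitive streak factor, fell by 1.15. Of 12 blood cell markers, 4 were tested and 0 passed in edgeR's test or in DESeq2, with 2 higher at an unadjusted edgeR p under 0.05. Their summed level was 8.62 to 10.4 CPM in SRF KO libraries and 6.41 to 8.01 CPM in WT libraries. Of those, Itgam and Ptprc were at 0.38 and 0.47 on the log2 scale. Over all 6 libraries Itgam passed with DESeq2's size factors in edgeR (0.39, adjusted p = 0.0496) and with no filter on low counts (0.38, adjusted p = 0.0432). It also passed without SRF KO replicate 2 (0.47) or WT replicate 2 (0.45), Ptprc without SRF KO replicate 1 (0.59) and Spi1 without WT replicate 3 (0.93). The adult globins Hbb-bs and Hbb-bt were at 0 in all 6 libraries. The part of such cells in the Kdr, Flt1 and Csf1r results was not tested.

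Kit fell together with several pluripotency genes. Of 13 such markers, 8 fell, 1 rose and 4 did not pass, and their summed level was 5870 to 5981 CPM in SRF KO and 7226 to 7746 CPM in WT. Esrrb and Dppa5a, both among the most abundant, fell by 0.49 and 0.42 on the log2 scale. Dppa3 (-2.08), Nanog (-0.79), Tfcp2l1 (-0.70), Klf4 (-0.52) and Klf2 (-0.34) also fell, and Zfp42 (0.17) rose. Tdgf1, a Nodal co-receptor, fell by 0.20, a call lost without SRF KO replicate 1 (-0.18). Pou5f1 did not pass (-0.08) but did without WT replicate 2 (-0.13). Kit itself was at -0.68. The part of a change in pluripotent cells in the Kit result was not tested.

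Vegfa is a classical gene of the oxygen response, in which HIF factors are degraded after hydroxylation by the EGLN enzymes. Of 14 other oxygen-regulated genes tested, 10 fell, 2 rose and 2 did not pass, with a median log2 fold change of -0.29, while Vegfa itself was at 0.08. Bnip3, a mitophagy receptor, stood at 66.6, 74.3 and 68.2 CPM in SRF KO against 155.9, 172.4 and 157.9 CPM in WT, a log2 fold change of -1.22 (adjusted p = 3.72e-08). Ankrd37 and the glycolytic enzyme gene Pgk1 fell by 0.75 and 0.51. The collagen prolyl hydroxylases P4ha2 and P4ha1 were the 2 that rose, by 1.003 and 0.43, and the vessel-active peptide gene Adm, at 0.11, did not pass.

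Of 10 oxygen-sensing regulators, 4 fell, 1 rose and 5 did not pass. Egln3, itself induced by HIF, fell from a WT mean of 96.4 ± 5.54 CPM to 46.4 ± 0.907 CPM (SD, n = 3), with a log2 fold change of -1.05 (adjusted p = 7.22e-08). Hif3a and Egln1 fell by 0.82 and 0.41. Epas1, which encodes HIF-2α, was the 1 that rose (0.21), and Hif1a, at 0.12, did not pass. Without WT replicate 2 the number of regulators that rose was 2. RNA levels do not show HIF protein, which is mainly controlled after translation.

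**Figure D5:**
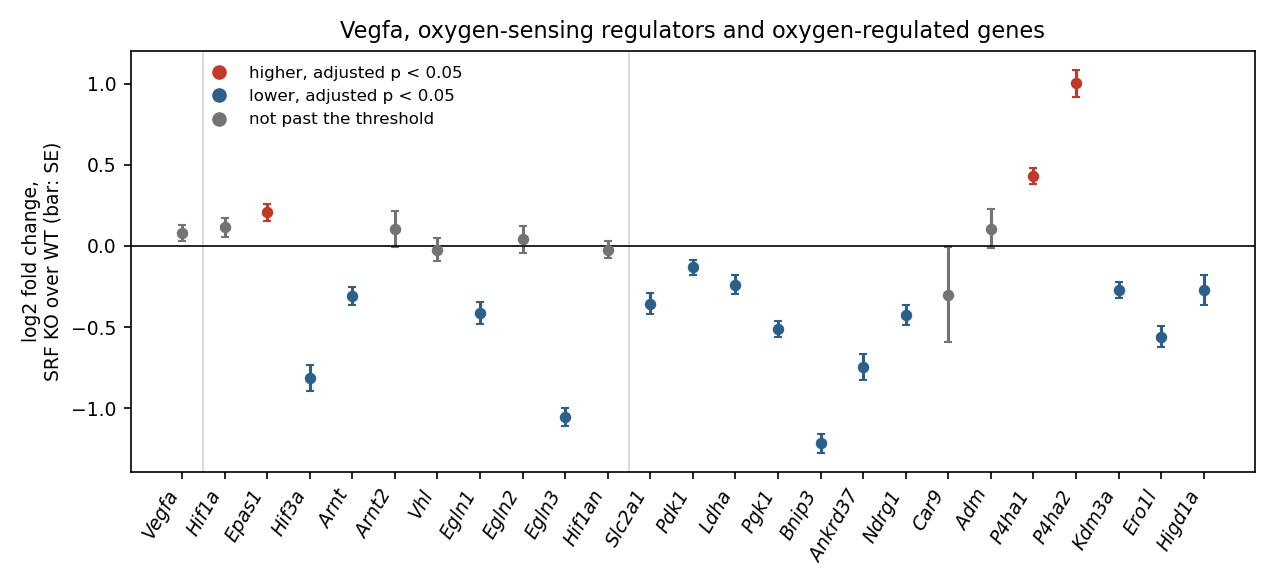
Log2 fold change (SRF KO over WT, bars SE) of Vegfa (first), 10 oxygen-sensing regulators (middle) and 14 oxygen-regulated genes (right); red passed as higher, blue as lower, grey did not pass. Vegfa at 0.08 lies above the 10 blue points of the right section, which reach -1.22 at Bnip3.

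Enzymes that release or activate the ligands mostly rose. Of 10 tested, 7 rose, 1 fell and 2 did not pass, with a median log2 fold change of 0.62. Plat, the plasminogen activator that cleaves latent PDGF-C, rose from a WT mean of 5.35 ± 0.233 CPM to 12.6 ± 1.06 CPM (SD, n = 3), that is by a log2 fold change of 1.25 (adjusted p = 1.62e-06). It is also on the endoderm marker list. Plau, the other plasminogen activator, rose by 1.33 and the protease Adamts1 by 0.74. Pcsk6, a proprotein convertase, was called lower at a log2 fold change of -0.16. Its call was lost in DESeq2 (-0.16) and on leaving out replicate 1 or 2 of SRF KO or replicate 1 or 3 of WT, with values of -0.17 to -0.12.

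Downstream of the receptors the changes went both ways. Of 28 tested adaptors and signal relays, 7 rose, 11 fell and 10 did not pass, with a median log2 fold change of -0.078. Over all genes tested, 21.2% were higher and 21.3% lower. Gab1, a docking protein for several receptor kinases, fell from 316 ± 1.06 to 219 ± 6.32 CPM (SD, n = 3, log2 fold change -0.53, adjusted p = 4.12e-06). Sos1, the Ras exchange factor, and the adaptor Shb fell by 0.36 and 0.49. Lyn, a Src-family kinase, rose by 0.96 and Pik3r1, a regulatory subunit of PI3 kinase, by 0.53. These counts changed when single libraries were left out, which also leaves fewer libraries to test. Leaving out replicate 1 of SRF KO gave 3 higher and 7 lower, and replicate 1 of WT gave 4 higher and 6 lower. Leaving out replicate 3 gave 5 lower when it was the SRF KO library and 7 when it was the WT library.

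Of 14 tested genes that turn the receptors off, 3 rose, 3 fell and 8 did not pass, with a median log2 fold change of 0.019. Both counts are near the shares over all genes tested, 21.2% higher and 21.3% lower. Socs5 and the adaptor Dok1 rose by 0.34 and 0.56, and Socs3 and the phosphatase gene Ptpn6 fell by 0.26 and 0.30. Ptpn12 also rose (0.22), a call lost without WT replicate 1 (0.20). Cblc also fell (-0.33). Its call was lost in DESeq2 (-0.32), without SRF KO replicate 1 (-0.32), 2 (-0.29) or 3 (-0.38), and without WT replicate 1 (-0.22). The ubiquitin ligase Cbl, which marks activated PDGF and KIT receptors for degradation, was at 0.069 and did not pass. The number that rose was 5 without WT replicate 2.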

How the data were processed

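The authors deposited 1 table of raw counts per gene and per repeat entry, judged from its whole numbers and unequal totals. Per the labels' protocols, RNA was read as pairs of 150 bp, and reads of poor quality, with adaptors or with no insert were dropped. The submitters' processing notes name build mm10 and DESeq2 with no role. The aligner, the counting rule and its use of strand are not given in the sources used here.

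All 15611 entries that passed edgeR's filterByExpr (minimum count 10) were fitted together in R 4.3.3 with edgeR 4.0.16: TMM scaling, quasi-likelihood test, group as the only term, Benjamini-Hochberg adjustment, threshold 0.05. Standard errors were computed from the F statistic. Exon lengths and positions are from GENCODE M21 and promoters from RefSeq. A count of 0 allows up to 3 counts, 0.0828 to 0.117 CPM, which covers counting error only. Replicate pairs differed by more than sampling noise (chi-square per degree of freedom 1.79 to 14.6). The largest values were those of WT replicate 2, 12.2 with WT replicate 1 and 14.6 with WT replicate 3. WT replicates 1 and 3 gave 3.64, and pairs of SRF KO replicates gave 1.79 to 4.88.

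The members and lists were chosen with earlier results of these data known. Named are all 10 genes, their detected relatives, up to 3 called genes per direction in other pathway lists, the most abundant markers, genomic neighbours and nearest profiles; other list genes were named after their values were seen. DESeq2 1.42.0, DESeq2's size factors in edgeR, no filter, genes alone, a replicate block, 2 stricter thresholds and each library left out were tried. The fit was tested on simulated data with 200 changed entries of 15489. It recovered 95.5% of them, and 1.55% of its calls were false. Since 42.4% of genes were called in the real data, these rates need not hold here.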

Additional observations from a re-analysis of the deposited data

How the results depend on the processing

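Over the 10 ligand and receptor genes, 124 of 130 comparisons with an alternative kept direction and call. Pdgfa passed the threshold with a replicate block (-0.22) and without WT replicate 2 (-0.32). A minimum absolute log2 fold change of 1 left 3 genes higher and 0 lower and by construction ended the calls of Pdgfb (-0.96), Flt1 (0.95), Kit (-0.68) and Kitl (0.77). Over all genes it left 817 higher and 260 lower, and an adjusted p under 0.01 left 2013 lower. Across fits that left out 1 library, 5 genes were always higher and 2 to 3 lower, and Pdgfa lay between -0.32 and -0.17. Replicate numbers were not taken as pairs, because the labels do not state that they are. Deviations of libraries with the same number correlated at 0.057, 0.38 and 0.24, and those of libraries with different numbers at -0.43 to 0.28. These values do not settle whether the libraries were paired. With the block 5 of the 10 were higher and 3 lower, and 6 other named genes that had not passed did so: Vegfc (0.24), Itgam (0.37), Ptprc (0.45) and Tmem165 (0.12) as higher, Vegfb (-0.22) and Pdcl2 (-0.56) as lower. The related ligands and receptors then counted 7 higher and 1 lower, and the oxygen-sensing regulators 2 higher. For 77 other named genes, 912 comparisons were unchanged, 65 weaker, 18 stronger and 6 reversed, the last in genes that did not pass. Leaving out 1 library at a time, Chic2 ranged from -0.034 (no WT replicate 1) to 0.091, Flt3l from -0.14 (no WT replicate 2) to 0.21, with -0.041 and -0.028 on omitting SRF KO replicate 1 and 3. Il34 ranged from -0.0038 to 0.41 and Gata1 from -0.58 to 0.33, with the changed sign on omitting WT replicate 2. The cause was not tested. Flt3, at 1 to 5 counts per library, was too low to be tested.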
